A study of Cavia porcellus with 30 samples.

Results

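Of the transcripts measured in guinea pig renal proximal tubular epithelial cells, 85 lay below their vehicle level after both doses of mercuric chloride and at both times of exposure. They were chosen by measured values, the group means of TPM (each transcript's share of all transcripts, corrected for its length and scaled to a fixed total) over the 5 libraries of each of the 6 groups. For each dose and time, the log2 ratio to vehicle was log2((treated mean + 0.5)/(vehicle mean of the same time + 0.5)). A transcript was a member when the largest of its 6 group means was at least 1 TPM and its log2 ratio was at most -0.6 in all 4 comparisons with vehicle. Of the 25824 transcripts in the tables, 15909 reached 1 TPM, and 85 of these met the rule. Because the rule used the means of every treated and vehicle group, the differences from vehicle are given as a description with no test. A transcript that had returned to its vehicle level by 24 h could not be a member, so any return towards vehicle described here is partial by construction.

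The cells came from Hartley guinea pigs and were treated in culture with vehicle (the culture medium) or with mercuric chloride at 30 µM (low dose) or 40 µM (high dose). RNA was collected after 12 h or 24 h, which gave 6 groups of 5 libraries, and no genetic change is named for any group. Per the methods of the study, the tubules were isolated from the kidney cortex of animals a few weeks old after magnetic removal of glomeruli. The authors had set both doses beforehand with a viability assay of the cells. The sources do not say whether the 5 libraries of a group came from separate animals, so SEs and thresholds measure the spread between these libraries, which may be technical. In bulk RNA of this kind, fewer cells of one type and less RNA per cell cannot be told apart.

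The proximal tubule is the first segment of the kidney tubule and takes back most of the solutes, amino acids, glucose and proteins that the glomerulus lets through. Inorganic mercury binds thiol groups and enters these cells largely as thiol conjugates through their amino acid and organic anion transporters, which is why this segment is its main site of injury in the kidney. In culture, proximal tubular cells gradually lose part of their transport and metabolic programme. The transcripts carry Ensembl identifiers that the files do not pair with gene names, and 0 of the 25824 identifiers matched the gene table at hand. No gene function, cell type marker, position or sequence is therefore given, and the labelled cell type was not checked against markers. Members are told apart by length and by the place they hold, and 2 are printed by identifier.

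Library totals ranged from 21651452 to 35021210 estimated counts. Over the 85 members, the mean estimated count per vehicle library had a median of 254.6, with 5 members under 10 counts. In the 40 µM libraries at 12 h the median was 84.0 counts and 17 members were under 10, so the rarest members were measured with large counting error. Estimates of 48 members (56.5%) were fractional somewhere (more than 0.001 counts from a whole number), a mark of reads that also match a similar transcript, against 61.4% of all 15909 transcripts. The other 37 members had estimates within that distance of a whole number throughout, called whole here.

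As a set, the members stood lower in each treated library than in every vehicle library of the same time. Their summed level was 2547 to 2684 TPM in the vehicle libraries at 12 h, 1357 to 1475 TPM at 30 µM and 812 to 972 TPM at 40 µM. At 24 h it was 2795 to 2844 TPM in vehicle, 1365 to 1491 TPM at 30 µM and 1309 to 1473 TPM at 40 µM. The ranges of the 2 doses were apart at 12 h and overlapped at 24 h. Within single libraries, 67 to 77 of the 85 members were at or past a log2 ratio of -0.6 at 30 µM and 12 h, and 74 to 82 at 40 µM and 12 h. At 24 h the counts were 68 to 79 at 30 µM and 70 to 76 at 40 µM, and single vehicle libraries had 4 to 11 such members. Replicate 5 of the 30 µM group at 24 h had the lowest median over members of that group, -1.12 against -0.95 to -0.86 in the other 4 libraries. Without it the median log2 ratio of that group was -0.87 in place of -0.89, and 79 of the 85 members still met the rule there.

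**Figure D1:**
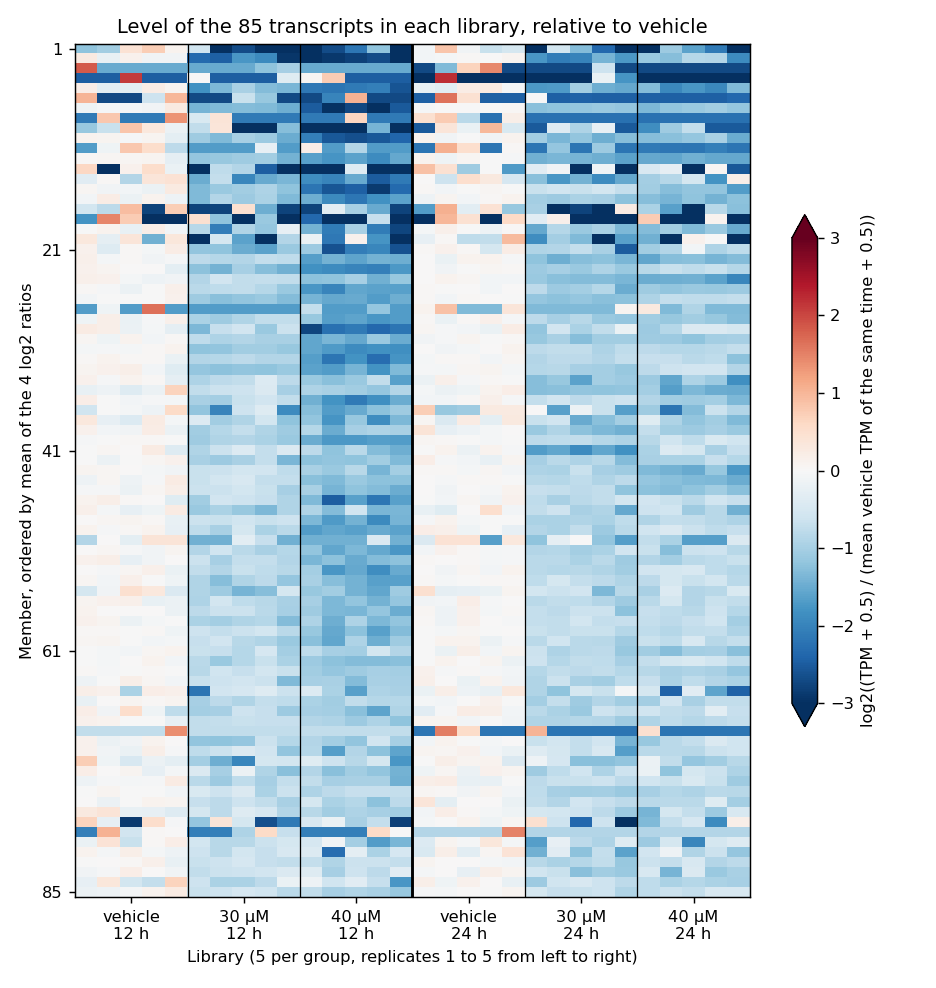
Log2 distance of each of the 85 members (rows, ordered by the mean of their 4 log2 ratios) from the mean vehicle TPM of the same time, in each of the 30 libraries (columns, 5 per group); the colour scale runs from -3 (blue) to 3 (red) and darker ends are clipped. The columns at 40 µM and 12 h hold the deepest blue, and rows with a patchwork of colours within the vehicle columns are members with libraries at 0.

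The median log2 ratio of the members was -0.85 at 30 µM and 12 h, -1.23 at 40 µM and 12 h, -0.89 at 30 µM and 24 h and -0.84 at 40 µM and 24 h. In the same order, the median member kept 49.3%, 34.3%, 47.0% and 48.1% of its vehicle TPM. Over all 15909 transcripts the median log2 ratio lay between -0.09 and 0.00, and 4.33%, 9.48%, 3.08% and 2.93% of them were at or past -0.6. The deepest of the 4 comparisons was 40 µM at 12 h for 56 members, 40 µM at 24 h for 14, 30 µM at 24 h for 10 and 30 µM at 12 h for 5. The shallowest was 30 µM at 12 h for 35 members and 40 µM at 24 h for 32, so for most members the rule was decided by the low dose at the early time or by the high dose at the late time. Many members were close to the limit. The member just inside had a shallowest log2 ratio of -0.6007 and the transcript just outside had -0.5998, with 21 members between -0.65 and -0.6 and 45 other transcripts between -0.6 and -0.55. Each vehicle mean was above every treated mean, across the 2 times as well, in 82 members.

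The members covered a wide range of baseline levels. Their mean level over the 10 vehicle libraries ranged from 0.896 to 481 TPM with a median of 6.66 TPM, against 12.0 TPM over all transcripts that reached 1 TPM. By vehicle level, members made up 16 of 2326 transcripts (0.688%) under 2 TPM, 37 of 4942 (0.749%) from 2 to 10 TPM, 25 of 7310 (0.342%) from 10 to 100 TPM and 7 of 1331 (0.526%) from 100 TPM up. Their median length was 1740 bases against 2418 bases over all transcripts, and 14 (16.5%) were under 500 bases, against 5.02%. At 40 µM and 12 h the median log2 ratio was -0.97 under 2 TPM, -1.22 from 2 to 10 TPM, -1.52 from 10 to 100 TPM and -1.54 from 100 TPM up. The pseudocount of 0.5 TPM draws the ratios of rare transcripts towards 0, which limits this comparison across levels. At 24 h and 40 µM the same 4 medians were -0.92, -0.84, -0.77 and -1.17.

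Whether a member was separated from vehicle library by library followed its level. All 5 treated libraries were below all 5 vehicle libraries of the same time in 61 members at 30 µM and 12 h (17% of all 15909 transcripts did so), in 66 at 40 µM and 12 h (21.6%), in 64 at 30 µM and 24 h (10.1%) and in 62 at 40 µM and 24 h (10.1%). In all 4 comparisons together this held for 56 members, against 4.39% of all transcripts. These counts rest on the values that chose the members and are given as a description. The 56 separated members had a median length of 2777 bases and a median vehicle level of 12.7 TPM, and 0 of them had a library at 0. Another 14 members were separated in 0 of the 4 comparisons. Their median length was 595.5 bases, their vehicle levels ran from 0.926 to 6.81 TPM, 13 had fractional estimates, and 12 had at least 1 vehicle library at 0. In each of these 14, treated and vehicle libraries overlapped in every comparison, so the log2 ratio of the means was not a difference seen in each library.

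**Figure D2:**
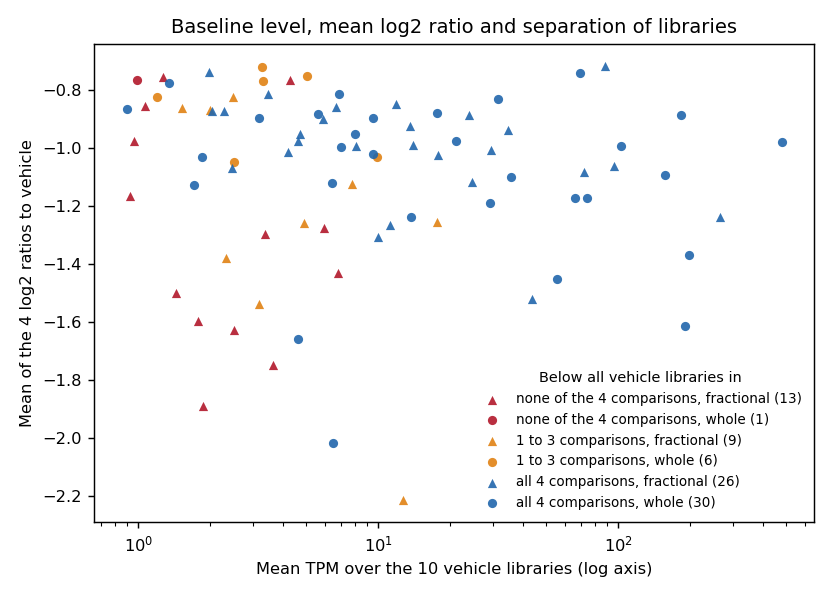
Mean of the 4 log2 ratios to vehicle (vertical axis) against the mean TPM over the 10 vehicle libraries (horizontal, log axis) for the 85 members; colour gives in how many of the 4 comparisons all treated libraries were below all vehicle libraries, and triangles mark fractional estimates. The 14 members separated in no comparison lie under 10 TPM, and the 7 members above 100 TPM were separated in all 4.

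The most abundant member, ENSCPOT00000014413.3 (2170 bases, whole estimates), had 475, 489, 501, 483 and 402 TPM in the vehicle libraries at 12 h. It had 298, 296, 309, 298 and 303 TPM at 30 µM, and 184, 144, 174, 125 and 179 TPM at 40 µM. The 3 groups did not overlap, and the level at 12 h stepped down with dose to 64.0% and 34.3% of vehicle. At 24 h it had 479, 531, 472, 487 and 489 TPM in vehicle, 254, 254, 261, 253 and 290 TPM at 30 µM, and 262, 297, 293, 276 and 259 TPM at 40 µM. The treated groups were again below all vehicle libraries, at 53.4% and 56.4% of vehicle, but now overlapped with each other. Its 40 µM level was thus higher at 24 h than at 12 h while its 30 µM level was lower.

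The member of 3556 bases, the fourth in vehicle level and with whole estimates, was among the 10 deepest as well as among the most abundant. It had 151, 161, 157, 153 and 198 TPM in vehicle at 12 h, 61.7, 65.8, 66.3, 65.1 and 58.7 TPM at 30 µM, and 28.6, 20.6, 24.3, 18.5 and 28.4 TPM at 40 µM. Each step of dose left a clear gap, and 14.7% of the vehicle level remained at 40 µM. At 24 h it had 211 to 221 TPM in vehicle, 90.5 to 99.5 TPM at 30 µM and 84.8 to 104 TPM at 40 µM, so that both doses stood at about the same share of vehicle, 44.0% and 44.5%.

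The member of 603 bases, the third in vehicle level and with whole estimates, kept its dose order at 24 h. Its vehicle libraries at 12 h had 188, 168, 170, 160 and 220 TPM, those at 30 µM had 71.5, 82.8, 88.1, 95.4 and 77.9 TPM, and those at 40 µM had 39.2, 30.2, 33.0, 24.5 and 35.8 TPM. At 24 h vehicle ranged from 204 to 225 TPM, 30 µM from 131 to 147 TPM and 40 µM from 67.2 to 104 TPM. The doses remained apart at both times, with 45.9% and 18.0% of vehicle left at 12 h and 64.1% and 41.5% at 24 h.

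The other members above 100 TPM showed the same separation from vehicle. The member of 330 bases, the second in vehicle level and with fractional estimates, had a mean of 266 ± 19.4 TPM (SD, n = 5) in vehicle at 12 h, 153 ± 6.48 at 30 µM and 93.2 ± 6.71 at 40 µM. At 24 h it had 266 ± 21.5, 107 ± 7.73 and 104 ± 8.82 TPM. The member of 1644 bases, the fifth in vehicle level, had 170 ± 8.29, 107 ± 6.80 and 66.2 ± 9.05 TPM at 12 h and 197 ± 5.85, 120 ± 6.61 and 113 ± 6.85 TPM at 24 h.

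The 10 members with the lowest mean of the 4 log2 ratios differed in how well their libraries were separated. The lowest of all, ENSCPOT00000003064.3 (930 bases, fractional), had 4.37, 4.92, 14.6, 18.1 and 11.5 TPM in vehicle at 12 h, 6.88, 0, 1.24, 0 and 0 TPM at 30 µM, and 0, 1.25, 1.99, 4.39 and 0 TPM at 40 µM. At 24 h it had 13.8, 26.5, 13.6, 8.94 and 10.0 TPM in vehicle, 1.29, 9.75, 5.61, 2.45 and 0 TPM at 30 µM, and 0, 6.57, 4.47, 2.97 and 0 TPM at 40 µM. Most treated libraries were low, yet the 30 µM group overlapped vehicle at both times, and the highest 40 µM library at 12 h lay just above the lowest vehicle library. Its 4 log2 ratios of -2.47 to -1.80 thus rest on libraries that vary widely within each group.

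The second lowest, of 1065 bases with whole estimates, was separated in every comparison. It had 7.36, 5.06, 6.68, 5.56 and 5.53 TPM in vehicle at 12 h, 0.797, 0.703, 1.44, 1.25 and 0.360 TPM at 30 µM, and 0.286, 0.373, 0.445, 0.518 and 0.209 TPM at 40 µM, where 6.06% of the vehicle level was left. At 24 h vehicle had 6.46 to 7.31 TPM, 30 µM 1.22 to 2.29 TPM and 40 µM 1.48 to 3.57 TPM. The order of the doses by mean was opposite to that at 12 h, but the dose ranges overlapped at both times. The difference between the doses at 24 h, 0.73 ± 0.29 (log2 fold change and SE), was not past the threshold used below (an adjusted p under 0.1). At 12 h this member had too few counts for that fit. The fifth lowest, of 1494 bases with whole estimates, had 4.44 ± 0.889, 1.46 ± 0.402 and 0.572 ± 0.143 TPM (SD, n = 5) at 12 h and 4.82 ± 0.972, 1.42 ± 0.389 and 1.23 ± 0.385 TPM at 24 h in vehicle, 30 µM and 40 µM. The tenth lowest, of 1090 bases with fractional estimates, had 39.6 ± 4.43, 17.2 ± 2.40 and 7.00 ± 1.30 TPM at 12 h and 47.9 ± 3.40, 19.7 ± 2.34 and 20.3 ± 2.67 TPM at 24 h.

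The other 5 of the 10 deepest members had fractional estimates, were 225 to 1072 bases long and were at 0 in part of the libraries of most groups. The third lowest, of 543 bases, had 4.66 TPM in 1 vehicle library at 12 h and was at 0 in the other 4. The fourth, of 279 bases, had 11.5 TPM in 1 vehicle library at 12 h and 25.1 TPM in 1 at 24 h, with the other 4 at 0 each time. The sixth, of 1072 bases, reached 6.21 TPM in a 40 µM library at 12 h, above every vehicle library of that time. The eighth, of 225 bases, was at 0 in all 10 treated libraries at 24 h and in 1 of the 5 vehicle libraries there. The ninth, of 783 bases, was at 0 in 4 of the 5 libraries at 40 µM and 12 h. For these 5 members no direction is drawn from the group means. Over all members, 2 were at 0 in all libraries of 30 µM at 12 h, 2 at 40 µM and 12 h, 2 at 30 µM and 24 h, and 4 at 40 µM and 24 h. A value of 0 here is an estimate under 0.5 counts, and a count of 0 allows up to 3 counts in a library, for counting error alone.

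**Figure D3:**
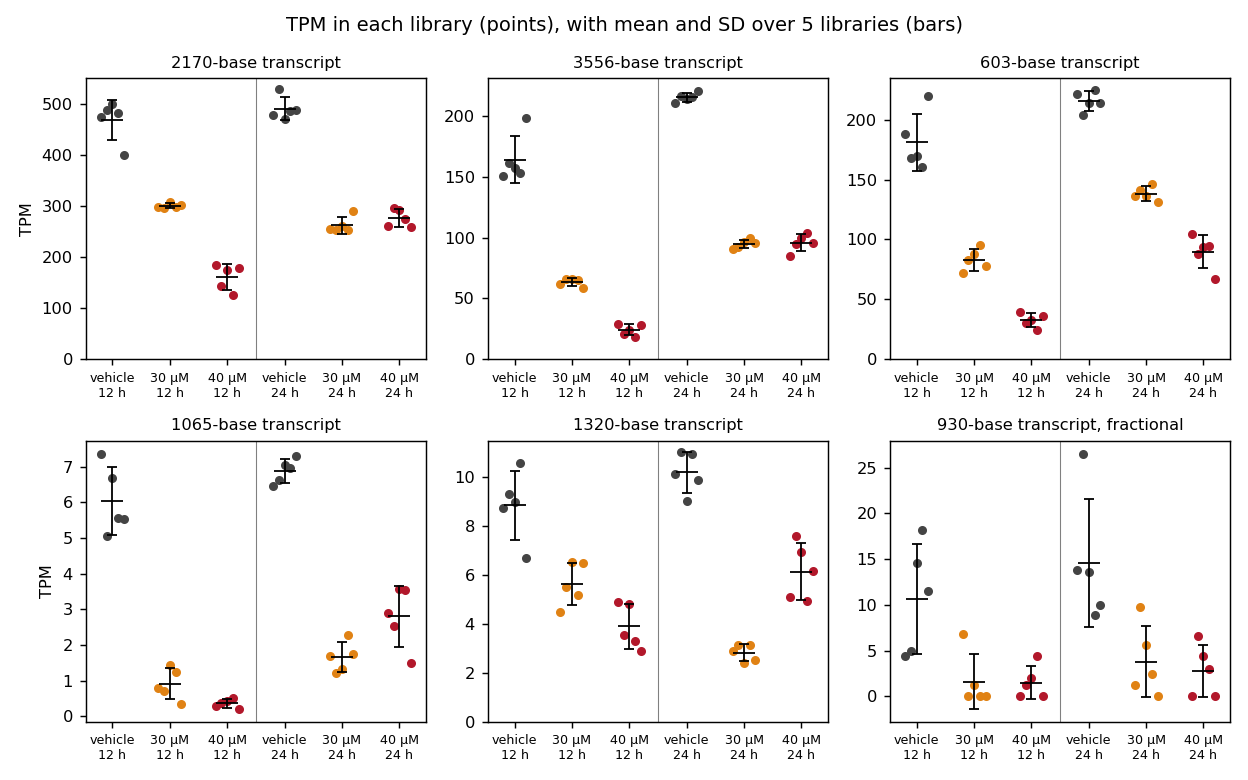
TPM (vertical axes, each including 0) of 6 members in each library (points, replicates 1 to 5 from left to right) with the mean and SD over the 5 libraries of each group (bars). The 2170-, 3556- and 603-base members step down with dose at 12 h, the 1320-base member is lowest at 30 µM and 24 h, and the 930-base member with fractional estimates has treated libraries within its vehicle range.

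At 12 h the level was lower at 40 µM than at 30 µM in 63 of the 67 members with enough counts to be fitted. The difference between the doses was fitted with edgeR over all transcripts, and a difference is called past the threshold at an adjusted p under 0.1. The means of all 6 groups entered the rule, so differences of the members between doses, between times and in vehicle are a description. They are given with their SE and without p-values, and nothing about the members is read from the shares over all transcripts, which were not chosen to be lowered. Of the 67 members, 42 (62.7%) were past the threshold and lower at 40 µM, and 0 were past it and higher. Over all 16684 transcripts fitted, the shares were 16.7% lower and 16.8% higher. DESeq2 and limma also put 0 members higher past the threshold, beside 2810 and 2889 of all 16684 transcripts. At an unadjusted p under 0.05 edgeR had 0 members higher and 43 lower. The log2 fold change between the doses had a median of -0.51 over the 67 members and ran from -1.81 to 0.36. By vehicle level, the median log2 fold change was -0.24 in 7 members under 2 TPM and -0.53 in 28 from 2 to 10 TPM. It was -0.51 in 25 from 10 to 100 TPM and -0.77 in 7 from 100 TPM up. The median SE fell in the same order, 0.35, 0.16, 0.12 and 0.10, so numbers past the threshold are not compared across levels. The median log2 fold change was -0.57 in 33 members with whole estimates and -0.48 in 34 with fractional ones (median SEs 0.12 and 0.15). The 18 members not fitted did not pass the filter on low counts and had vehicle levels of at most 6.81 TPM, and 2 of the 67 passed it through 1 dose group alone.

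Among the members past the threshold, the largest differences between the doses were in members of 2157, 6574 and 3556 bases. The 2157-base member (fractional) had 2.88, 4.86, 5.28, 3.54 and 5.06 TPM at 30 µM and 0.789, 1.35, 1.5, 1.20 and 1.41 TPM at 40 µM, with no overlap (log2 fold change -1.81 ± 0.24 SE). The 6574-base member (whole) had 0.561, 0.473, 0.588, 0.729 and 0.720 TPM at 30 µM and 0.425, 0.143, 0.180, 0.109 and 0.141 TPM at 40 µM. Its 40 µM libraries were all lower, with replicate 1 nearest to the 30 µM group (-1.65 ± 0.36). The 3556-base member differed by -1.42 ± 0.11 and the most abundant member by -0.92 ± 0.10.

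At 24 h the median difference between the doses was near 0. Of the 71 members fitted, 5 were past the threshold and lower at 40 µM and 4 past it and higher, or 4 and 2 at an adjusted p under 0.05. Over all 16664 transcripts fitted the shares were 1.88% and 1.7%, or 597 transcripts, with 263 to 1053 when 1 library was left out. The median log2 fold change of the members was 0.02 with a range from -0.84 to 1.44. The median SE of a member was 0.11, against 0.14 at 12 h. The dose groups of the 2 times share no library. Of the 67 members fitted at both, the 42 past the threshold at 12 h held all 9 that were past it at 24 h. Of these 9, 5 were lower at 40 µM both times and 4 turned in direction. With 42 of 67 past it at 12 h, much of this overlap would arise for any 9 members, and the overlap over all transcripts was not counted. The other 33 of the 42 were not past it at 24 h, which does not show that their doses were equal there. No test was run of the dose difference at 12 h against that at 24 h. The 2051-base member, for example, differed by -0.51 ± 0.09 at 12 h and -0.35 ± 0.10 at 24 h. DESeq2 put 13 members past the threshold at 24 h, 8 lower and 5 higher, beside 631 lower and 516 higher of all 16664 transcripts. With the place of each library in the title series as a block, edgeR put 0 members past the threshold at 24 h. That fit left 3 residual degrees of freedom in place of 8 and put past it 1 of all 16664 transcripts, and 6 members were higher and 7 lower at an unadjusted p under 0.05 (9 and 10 without the block).

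The 5 members past the threshold with a lower level at 40 µM at both times were 603, 6129, 2211, 5139 and 432 bases long and are named as a count of 5, after their values were seen. Of these 5, the 603-base member had the largest difference at 24 h (-0.63 ± 0.09). The 6129-base member had 4.08, 3.97, 4.27, 3.86 and 4.25 TPM at 30 µM and 24 h and 3.16, 2.91, 2.74, 2.71 and 2.38 TPM at 40 µM, with no overlap (-0.58 ± 0.08). The 5139-base member had 69.4, 68.8, 65.7, 68.0 and 48.5 TPM at 30 µM and 45.7 to 54.9 TPM at 40 µM, and its lowest 30 µM library, replicate 5, lay within the 40 µM range (-0.42 ± 0.08). The 2211-base member differed by -0.54 ± 0.11. The 432-base member (-0.37 ± 0.10) was only just past the threshold, with 58.8 to 66.9 TPM at 30 µM and 39.6 to 54.6 TPM at 40 µM.

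The 4 members with the opposite order at 24 h were 1320, 2407, 552 and 2771 bases long, all with whole estimates, and were likewise singled out after their values were seen. The 1320-base member had 4.49, 5.49, 6.52, 5.18 and 6.47 TPM at 30 µM and 4.91, 3.55, 4.80, 3.30 and 2.90 TPM at 40 µM after 12 h. After 24 h it had 2.87, 3.15, 2.40, 3.13 and 2.54 TPM at 30 µM and 5.08, 7.58, 6.93, 4.93 and 6.17 TPM at 40 µM. The dose groups overlapped at 12 h (log2 fold change -0.57 ± 0.19) and were apart at 24 h with 40 µM above 30 µM (1.10 ± 0.16). The 2407-base member had 35.5 ± 2.36 and 28.2 ± 2.01 TPM at 12 h and 28.8 ± 1.06 and 39.1 ± 2.34 TPM at 24 h at 30 and 40 µM, a difference of 0.42 ± 0.05 at 24 h. The 552- and 2771-base members differed by 0.28 ± 0.07 and 0.28 ± 0.06.

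**Figure D4:**
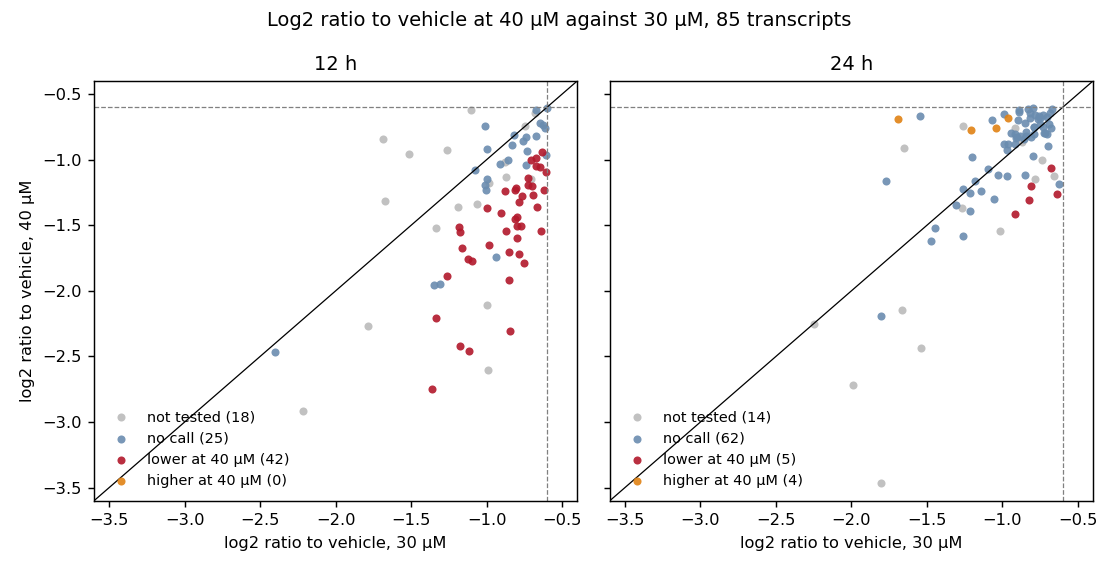
Log2 ratio to vehicle at 40 µM (vertical axis) against 30 µM (horizontal axis) for the 85 members at 12 h (left) and 24 h (right); the solid line marks equal ratios, the dashed lines the limit of -0.6 used by the rule, and colour whether the direct difference of 40 and 30 µM was past the threshold. At 12 h the 42 such members lie under the line, and at 24 h the points gather along it, with 5 such members under and 4 above.

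At 40 µM the median member stood nearer to vehicle at 24 h than at 12 h. The change of the 40 µM effect is the treated-to-vehicle fold change at 24 h less that at 12 h, fitted by edgeR over all transcripts. The rule held both of these ratios at -0.6 or lower in the same libraries, so the changes too are a description. Of the 78 members fitted, 36 were past the threshold of that fit (an adjusted p under 0.1) towards vehicle and 3 away from it. Over all 17512 transcripts fitted, which were not chosen to be lowered, 15.8% had a positive and 14.2% a negative change past the threshold, and nothing about the members is read from these shares. Over the 76 members with more than 3 counts in some library of every group, the change had a median of 0.51 on the log2 scale and ran from -0.60 to 2.68. The 36 members stood at a median of 30.1% of vehicle at 12 h and 56.4% at 24 h, and 11 of them were at 60% or more at 24 h. The rule let no member come much nearer, since the highest level of any member at 40 µM and 24 h was 65.3% of vehicle. The 39 members not past it stood at medians of 39.0% and 45.2%. These changes and the dose differences at 12 h share the 40 µM libraries of 12 h.

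Among the members past the threshold, the largest changes were in members of 1065, 4610 and 2157 bases. The 1065-base member went from 6.06% to 40.7% of vehicle (change of 2.68 ± 0.32 SE on the log2 scale). It had a mean of only 5.2 counts at 40 µM and 12 h, and by the log2 ratios with the pseudocount its change was 1.76. The 4610-base member (fractional) had 0.271, 0.216, 0.491, 0 and 0.140 TPM at 40 µM and 12 h and 0.899, 1.06, 1.47, 0.318 and 2.68 TPM at 24 h, beside vehicle libraries of 1.01 to 3.31 and 1.33 to 3.54 TPM. At 24 h, 1 library lay within the 12 h range and 2 within the vehicle range (2.44 ± 0.79). The 2157-base member went from 15.3% to 61.4% of vehicle, with 3.17, 3.80, 5.34, 5.30 and 4.92 TPM at 24 h (1.94 ± 0.24).

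Among the abundant members, the 3556-base member went from 14.7% to 44.5% of vehicle (1.54 ± 0.13) and the 603-base member from 18.0% to 41.5% (1.16 ± 0.15). The most abundant member changed by 0.66 ± 0.13 and the 1644-base member by 0.51 ± 0.10. The 330-base member stood at 35.1% and 39.2% of vehicle, a change of 0.16 ± 0.09 that was not past the threshold. Thus 4 of the 5 most abundant members were past it. The 1090-base member went from 17.7% to 42.3% (1.21 ± 0.15).

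The 3 members past the threshold away from vehicle were 2051, 2211 and 6164 bases long. The 2051-base member (whole) had 10.7, 10.8, 12.5, 9.19 and 11.5 TPM at 40 µM and 12 h and 11.4, 11.6, 11.8, 10.4 and 8.14 TPM at 24 h. These ranges overlap, while the vehicle ranges of 23.0 to 28.6 TPM at 12 h and 30.9 to 35.5 TPM at 24 h do not, so the share of vehicle went from 42.7% to 32.4% (-0.45 ± 0.14). The 2211-base member (fractional) went from 47.2% to 36.5% (-0.42 ± 0.14). The 6164-base member (whole) went from 51.6% to 42.0% (-0.36 ± 0.14), with 2.45 ± 0.397 and 2.74 ± 0.309 TPM at 40 µM beside 4.75 ± 0.285 and 6.52 ± 0.708 TPM in vehicle. This last change was on the other side of the threshold in 8 of 27 other settings.

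**Figure D5:**
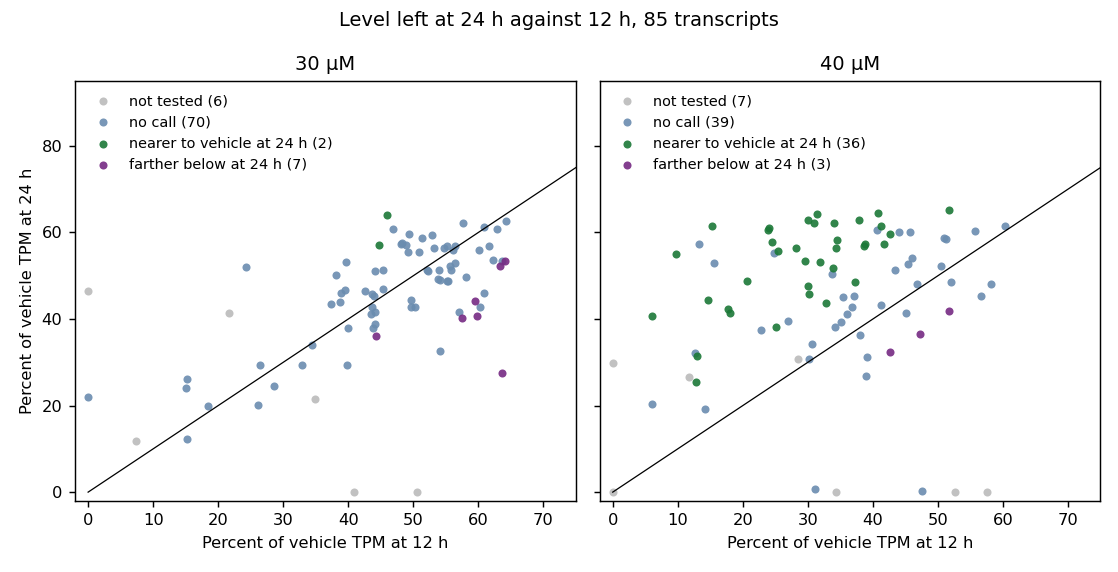
Percent of the vehicle TPM left at 24 h (vertical axis) against 12 h (horizontal axis) for the 85 members at 30 µM (left) and 40 µM (right); the line marks equal percentages and colour whether the change was past the threshold of the fit. At 40 µM, 36 such members lie above the line and 3 under it, and at 30 µM most points lie near the line with 2 above and 7 under it.

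At 30 µM the median member stood at about the same distance from vehicle at both times. Of the 79 members fitted, 2 were past the threshold towards vehicle and 7 away from it. The rule held the ratios at both times at -0.6 or lower, which limits the changes in each direction, so this split is a description. Nothing is read from the shares over all 17393 transcripts fitted (1.64% positive and 2.09% negative). The median change was -0.09 over the 78 members with more than 3 counts in some library of every group. The 603-base member was nearer at 24 h (0.40 ± 0.10). The 1320-base member was farther below, at 63.6% of vehicle at 12 h and 27.6% at 24 h (-1.27 ± 0.19). The 330-base member went from 57.5% to 40.3% (-0.60 ± 0.08) and the 2051-base member from 59.8% to 40.8% (-0.61 ± 0.10). The most abundant member had a change of -0.32 ± 0.09 and was on the other side of the threshold in 21 of 27 other settings. Without replicate 4 of the 30 µM group at 24 h, 5 members were past the threshold in place of 9. The changes at the 2 doses share the vehicle libraries, and whether they differ from each other was not tested.

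The ratios to vehicle rest on a baseline whose level differed between 12 h and 24 h in part of the members. Both vehicle means entered the rule as the level that the treated means were set against. Of the 78 members fitted in vehicle alone, 16 were past the threshold and higher at 24 h and 2 past it and lower, and the median log2 fold change was 0.22. Over all 16614 transcripts fitted the shares were 1.38% and 0.782%, or 359 transcripts, with 175 to 546 when 1 library was left out. The split into higher and lower depends on the fit and the scale. DESeq2 put 652 of all transcripts higher and 540 lower, with 24 members higher and 2 lower. With limma on log2(TPM + 0.5), 147 of all transcripts were higher and 934 lower, with 14 members higher and 2 lower. By TPM, 65 of the 85 members had a higher vehicle mean at 24 h, with a median of 0.15 on the log2 scale against -0.06 over all transcripts. The 3556-base member went from 164 ± 19.5 to 215 ± 3.76 TPM in vehicle (0.46 ± 0.06), with replicate 5 at 12 h, 198 TPM, nearest to the 24 h range. The 6164-base member differed by 0.52 ± 0.07, the 1644-base member by 0.27 ± 0.04 and the 2051-base member by 0.42 ± 0.07. The 2407-base member was lower at 24 h (-0.21 ± 0.04). The vehicle level of the most abundant member differed by 0.13 ± 0.06, which was not past the threshold. The 18 members past it were 10 or 11 without replicate 3 or 4 of vehicle at 12 h or without replicate 1, 4 or 5 at 24 h, and 0 by edgeR with the place of each library in the title series as a block, which put 0 of all 16614 transcripts past it. At an unadjusted p under 0.05, 28 members were higher and 3 lower with that block, and 29 and 2 without it. A higher vehicle level at 24 h lowers the share of vehicle at an equal treated level, and the part of this drift in the changes with time was not tested.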

How the data were processed

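RNA-seq libraries of 30 cultures were analysed, grouped by the dose and time in the labels into 6 groups of 5. Per the submitters' processing notes, kallisto 0.42.4 was run by the authors on each library. It assigns reads to Ensembl transcripts of the guinea pig and shares reads that match several of them. The Ensembl release is not given in the sources used here, and the labels and the methods give different read lengths. Each deposited table holds an estimated count, not normalised and not always whole, and a deposited TPM value for each of 25824 transcripts. Library totals were 21651452 to 35021210 counts, and counting error limits the rare members.

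Group means, SDs and log2 ratios were computed from TPM with a pseudocount of 0.5 TPM. Estimated counts were rounded and tested per transcript over the whole table with the quasi-likelihood test of edgeR 4.0.16 in R 4.3.3 (TMM normalisation, filterByExpr), on the libraries of the groups compared. Benjamini-Hochberg adjusted p-values were taken over all transcripts tested, and a value under 0.1, as in the study, was a call, or past the threshold. Since all group means entered the rule, no p-values of members are printed. SEs were obtained by dividing the log2 fold change by the square root of the F statistic. Sleuth, which the authors used, was not run. The code was tested on simulated counts.

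Members described singly were the 10 with the lowest mean of the 4 log2 ratios, the 5 with the highest vehicle TPM, and the 3 called with the largest dose difference at 12 h and the largest change at 40 µM in each direction. Members called at 24 h were added after their values were seen. The members and the lists were chosen with earlier results of these data known. Planned gene lists and cell type markers were not run, since no identifier could be paired with a name. Replicate numbers follow sample order and pair nothing. Alternatives were other pseudocounts, limits and scalings for the rule, and RLE size factors, DESeq2 1.42.0, limma 3.58.1, no filter, an adjusted p under 0.05, all 30 libraries in 1 fit, a block on the place of each library in the series of titles (runs of 6), and the omission of each library in turn for the tests.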

Additional observations from a re-analysis of the deposited data

Results flagged for a closer look

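A library stood far from the other 4 of its group in 16 of 125 sets of 5 library values. The sets were the TPM of members described singly, by group, and the summed level and median log2 distance over all members. All 16 were TPM of single members. For normally distributed values about 1 in 20 sets, or 6.25, would be flagged. With 4 libraries at 0 the remaining one is always flagged, so no excess over chance is read from the 16 flagged libraries. In the most abundant member (ENSCPOT00000014413.3) these were vehicle replicate 5 at 12 h, low at 402 TPM, vehicle replicate 2 at 24 h, high at 531 TPM, and the 30 µM replicate 5 at 24 h, high at 290 TPM. In the 3556-base member it was vehicle replicate 5 at 12 h, high at 198 TPM, and in the 6574-base member the 40 µM replicate 1 at 12 h, high at 0.425 TPM. None of these 5 values reached across to another treatment at the same time except the 290 TPM, which lay within the 40 µM range.

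The other 11 were high single libraries of members with fractional estimates. In the deepest member (ENSCPOT00000003064.3) they were the 30 µM replicate 1 at 12 h with 6.88 TPM and vehicle replicate 2 at 24 h with 26.5 TPM. The 543-base member had 4.66 TPM in vehicle replicate 1 at 12 h and 1.63 TPM in the 30 µM replicate 4 at 24 h. The 279-base member had 11.5 TPM in vehicle replicate 3 at 12 h, 25.1 TPM in vehicle replicate 2 at 24 h and 4.29 TPM in the 30 µM replicate 4 at 24 h. The 1072-base member had 6.21 TPM in the 40 µM replicate 3 at 12 h and 2.23 TPM in the 30 µM replicate 1 at 24 h. At 40 µM and 12 h, the 225-base member (the eighth deepest) had 2.87 TPM in replicate 3 and the 783-base member had 1.20 TPM in replicate 4.

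The change of the mercuric chloride effect from 12 h to 24 h was past the threshold of the interaction fit in 9 members at 30 µM and in 39 at 40 µM, as a description, since the rule used the ratios at both times. At 30 µM the change on the log2 scale was -0.32 in the 2170-base, -0.60 in the 330-base, 0.40 in the 603-base, -0.61 in the 2051-base and -0.33 in the 2211-base member. At 40 µM the listed members nearer to vehicle at 24 h changed by 2.68 (1065 bases), 2.44 (4610), 1.94 (2157), 1.54 (3556), 1.22 (6574), 1.21 (1090), 1.16 (603), 0.94 (1494), 0.66 (2170) and 0.51 (1644). Those farther below changed by -0.45 (2051 bases), -0.42 (2211) and -0.36 (6164).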

How the results depend on the processing

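The rule gave 131 members with a pseudocount of 0.1 TPM and 174 with a log2 ratio of at most -0.5, both holding all 85, and 51 with a largest mean of at least 5 TPM, 23 at -0.8, 58 with a pseudocount of 1 TPM and 69 with TPM over size factors, all among the 85. Group medians gave 97 members, of which 61 were among the 85, and CPM with TMM factors gave 75, of which 58 were. Leaving out 1 library gave 81 to 93. The counts below all vehicle libraries were 53 to 66 by scaled counts in place of TPM. With the block on the place in the title series (3 residual degrees of freedom), edgeR called 0 members between the doses at 24 h (6 higher and 7 lower at an unadjusted p under 0.05) and 0 in vehicle between the times (28 and 3). Leaving out 1 library gave 39 to 45 calls between the doses at 12 h, 6 to 11 at 24 h, 10 to 18 in vehicle, 5 to 10 for the change at 30 µM and 36 to 42 for that at 40 µM. The lowest vehicle counts came without vehicle replicates 3 or 4 at 12 h or 1, 4 or 5 at 24 h, and the lowest at 30 µM (5) without its replicate 4 at 24 h. An adjusted p under 0.05 gave 11 calls in vehicle and 6 between the doses at 24 h. Of 1696 alternative values of members described singly, 1609 kept their side of the threshold, 74 lost and 13 gained it, and 0 changed direction while past it. Values not past it could change sign. No paired analysis was possible by replicate number, because the labels give none that the groups share, and the place in the title series was the block that was run. The causes were not tested.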
